A study of Sus scrofa with 4 samples.

Results

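The genes described here are 10 regulators of the mitochondrial route of cell death, 4 that favour survival (BCL2, BCL2L1, MCL1 and XIAP) and 6 that favour death (BID, BAD, BAX, BAK1, BCL2L11 and DIABLO). They were found by gene symbol in the deposited expression table, where they take up 20 of 35395 transcript rows and 10 of 25560 gene names. RNA was sequenced from pig (Sus scrofa) 4-cell embryos held in embryo culture medium, all of which had small interfering RNA injected into the cytoplasm. One group of 2 libraries is labelled control and the other, also of 2 libraries, is labelled TFAP2C KD (SiTF in the titles), a knockdown of the transcription factor AP-2 gamma. The libraries are called C1 and C2 (labelled control) and ST1 and ST2 (labelled knockdown), after the column names of the table. The labels give no sequence for either small interfering RNA, no breed or age, no number of embryos in a library, and nothing on whether a group's libraries are separate embryo pools. P-values are therefore set against the spread among 4 libraries that may be technical repeats.

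Proteins of the BCL2 family set whether the outer mitochondrial membrane stays closed. BCL2, BCL2L1 (BCL-xL) and MCL1 bind and hold back the pore formers BAX and BAK1, while the BH3-only proteins BID, BAD and BCL2L11 (BIM) free or activate those pore formers. Once the membrane opens, cytochrome c and DIABLO (Smac) leave the mitochondrion; cytochrome c triggers assembly of the apoptosome that activates caspases, and DIABLO releases caspases from XIAP. In mammalian embryos early blastomeres carry a large store of maternal RNA, and cell death is best known from later cleavage and the blastocyst.

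Read depth, taken from the ratio of coverage to FPKM on the assumption that StringTie's own formula was used, ranged from 6.07 to 8.83 gigabases. FPKM is a level scaled to transcript length and to library size, and levels of different genes are set side by side below only as listed. The scaling does not make up for failed estimates or for transcripts left out. The ribosomal protein gene RPL3 was listed at 0 in C1, C2 and ST1 and at 3.17 FPKM in ST2. Of the 46 RefSeq transcripts of the genes described here, 20 were analysed. Whether listed levels rank the RNA of different genes correctly was not tested. The row of TFAP2C itself carries coverage-to-FPKM ratios that belong to the other group's libraries, so it cannot serve as a check of the labels. As listed it stands at 14.7 FPKM in C1, 7.78 in C2, 0.448 in ST1 and 3.11 in ST2; placed by its ratios, the first pair of values would belong to ST1 and ST2 and the second to C1 and C2. The 22 values of the apoptosis genes above 1 FPKM all carry the ratio of their own library within a relative tolerance of 0.001. Directions below are therefore given by label, as labelled knockdown against labelled control. The mitochondrial genome's share of all transcripts was 21.7% in C1, 29.1% in C2, 45.8% in ST1 and 31.9% in ST2. The 6 oocyte genes checked were present in every library and summed to 3177 and 3271 FPKM in C1 and C2 and 1327 and 1337 in ST1 and ST2. All but ZAR1 were lower in both ST libraries than in both C libraries, and WEE2 and H1FOO fell (limma, adjusted p = 0.0179 and 0.0256). Of all 9850 genes tested, 35.8% were lower without overlap and 1.46% fell by limma at an adjusted p under 0.05. The 18 cumulus and granulosa cell markers in the table summed to 22.1 FPKM in C1, 13.6 in C2, 21.6 in ST1 and 15.4 in ST2, with PTGS2, AMH and KRT18 at 0 throughout. INHBA and FST carried most of the sums of C1 and C2, so the sums alone do not show how the other markers differed. INHBA was lower in both ST libraries and FST overlapped. VIM was higher, at 0.0403 and 0.325 FPKM in C1 and C2 and 2.81 and 0.556 in ST1 and ST2. TNFAIP6 reached 4.32 FPKM in ST1 and DCN 3.67 in ST2, each under 1 elsewhere. Of the 5 tested markers none passed (limma), 2 with a positive and 3 with a negative log2 fold change. The 6 blood cell markers summed to 1.41 to 3.20 FPKM and the 2 sperm markers to at most 0.0872.

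The survival gene BCL2L1 was lower, and the death genes BID, DIABLO and BAD were higher, in the libraries labelled knockdown. BCL2L1 stood 3.63-fold lower, BID was listed at 0 in both C libraries and at 12.9 and 11.0 FPKM in ST1 and ST2, and DIABLO and BAD moved from under 1 FPKM to several FPKM. MCL1 and XIAP, the other expressed survival genes, did not pass the test, and the pore formers BAX and BAK1 were at or near 0 in every library. Of the 7 genes that reached a mean of 1 FPKM and were tested, 3 rose and 1 fell (limma, adjusted p under 0.05), where 5.11% of all 9850 genes tested rose and 1.46% fell, 6.57% together. Here and below, p-values of limma are adjusted over all tested genes by Benjamini-Hochberg. BID, BAD, DIABLO and BCL2L11 reached the mean of 1 FPKM only through ST1 and ST2, so that among the tested genes they had to differ, and the count is a description. Among the 765 tested genes with a mean over C1 and C2 under 1 FPKM, 28.4% rose by the same test. Without ST1, or without ST2, limma called none of the 10 genes (3 higher and 1 lower, and 5 higher and 1 lower, at an unadjusted p under 0.05). In whole-embryo RNA, fewer copies per cell and fewer cells that carry a transcript cannot be told apart.

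**Figure D1:**
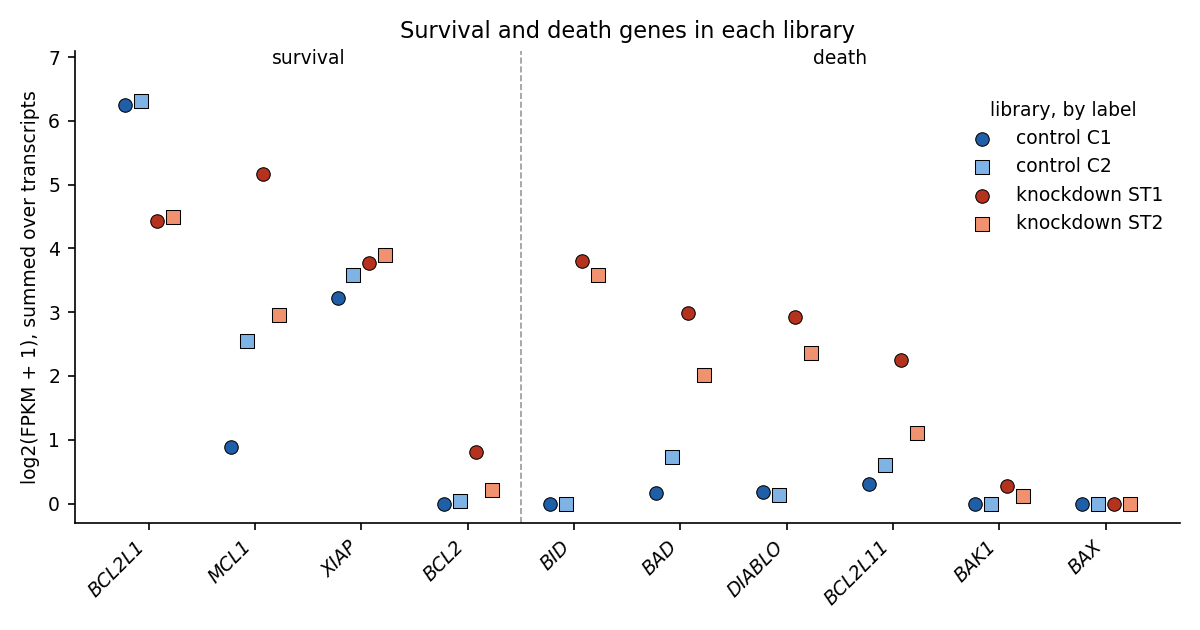
Level of each gene in each library, as log2(FPKM + 1) summed over its transcript rows, with survival genes left of the dashed line and death genes right of it; circles and squares are libraries 1 and 2 of a label. BCL2L1 is the highest gene in both C libraries and lower in both ST libraries, while BID, BAD, DIABLO and BCL2L11 lie near 0 in C1 and C2 and above them in ST1 and ST2.

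BCL2L1 had the highest listed FPKM of the 10 genes in C1 and C2. BCL2L1 (gene ID 397536, chromosome 17, 35366139 to 35415798, Sscrofa11.1) encodes BCL-xL, which holds BAX and BAK1 in check. It stood at 74.9 FPKM in C1, 78.3 in C2, 20.6 in ST1 and 21.5 in ST2. The groups did not overlap, and the libraries of a group lay close together. The means were 76.6 ± 2.45 and 21.1 ± 0.615 FPKM (SD, n = 2 each). On the log2(FPKM + 1) scale the difference was -1.81 (SE 0.26, limma, adjusted p = 0.0211). Among the 1186 tested genes with a mean over C1 and C2 of at least 50 FPKM, 2.61% fell by this test. The log2 fold change lay between -1.85 and -1.78 when any one library was left out. The call was lost in each of those 4 fits (limma, adjusted p = 0.0889 and 0.0633 without C1 and C2, and 0.153 and 0.0930 without ST1 and ST2). With no filter on low values the adjusted p of BCL2L1 was 0.159, and with a replicate block it was 0.0590 (limma). Oocyte genes were lower alongside BCL2L1. WEE2, a kinase that keeps oocytes in meiotic arrest, stood at 622 FPKM in C1, 813 in C2, 153 in ST1 and 172 in ST2, 4.42-fold lower by the means. H1FOO, the oocyte linker histone, stood at 1259 FPKM in C1, 1054 in C2, 252 in ST1 and 346 in ST2, 3.87-fold lower. GDF9 and ZP3, at 2.21-fold and 2.36-fold lower, did not pass (limma, adjusted p = 0.0824 and 0.0813), nor did BMP15 at 1.29-fold lower (0.392). The fall of BCL2L1 was thus of a size near that of WEE2 and H1FOO. GDF9, ZP3 and BMP15 were lower by less, and ZAR1 overlapped between the groups. Whether these differences are related to that of BCL2L1 was not tested.

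Nearly all BCL2L1 RNA was assigned to 1 transcript row. The model XM_021077292.1 held 98.3% to 98.8% of the gene's FPKM in every library, at 73.8 FPKM in C1, 77.4 in C2, 20.3 in ST1 and 21.2 in ST2. The other row, XM_021077294.1, held 1.07 and 0.968 FPKM in C1 and C2 and 0.355 and 0.306 in ST1 and ST2. Both rows were lower in ST1 and ST2 and kept nearly the same proportion to each other. The mean read depth per base of the leading row, a coverage not scaled for library size, was 494 and 544 in C1 and C2 and 123 and 187 in ST1 and ST2. The RefSeq gene table lists 12 transcripts for BCL2L1, of which these 2 were analysed here, so splicing into the long and short forms of the protein was not measured.

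MCL1 varied more between libraries of the same label than any other tested gene of the survival side. MCL1 (gene ID 397648, chromosome 4, 98562092 to 98567014) encodes a short-lived BCL2 relative whose protein is turned over quickly. Its single row stood at 0.842 FPKM in C1, 4.87 in C2, 34.8 in ST1 and 6.80 in ST2. Both ST libraries lay above both C libraries, but C2 and ST2 were near each other and ST1 stood far above the rest. The log2 fold change of 2.35 (SE 0.85) did not pass (limma, adjusted p = 0.145). It was 1.25 without ST1 and 3.45 without ST2, and 1.51 and 3.18 without C1 and C2. ST1 is also the library with the largest share of mitochondrial transcripts, 45.8%. After scaling without the mitochondrially encoded genes, with library factors of only 0.962 to 1.05, the log2 fold change was 2.34. Any part of the mitochondrial share in the MCL1 level was not tested.

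XIAP did not differ detectably in its sum, yet its transcript rows did not keep their proportions. XIAP (gene ID 100037300, chromosome X, 101399374 to 101440021) binds and blocks caspases. Its sum was 8.36 and 11.0 FPKM in C1 and C2 and 12.6 and 14.0 FPKM in ST1 and ST2. Both ST libraries lay above both C libraries, and the log2 fold change of 0.43 (SE 0.29) did not pass (limma, adjusted p = 0.370). In C1 and C2 and in ST2, all of the FPKM was assigned to XM_021079366.1. In ST1 that row held 9.25% of the sum (1.17 FPKM), XM_021079368.1 held 63.6% (8.04 FPKM) and XM_021079365.1 held 27.1% (3.43 FPKM). The last 2 rows were listed at 0 in the 3 other libraries. The other assignment was thus seen in 1 of the 2 ST libraries.

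**Figure D2:**
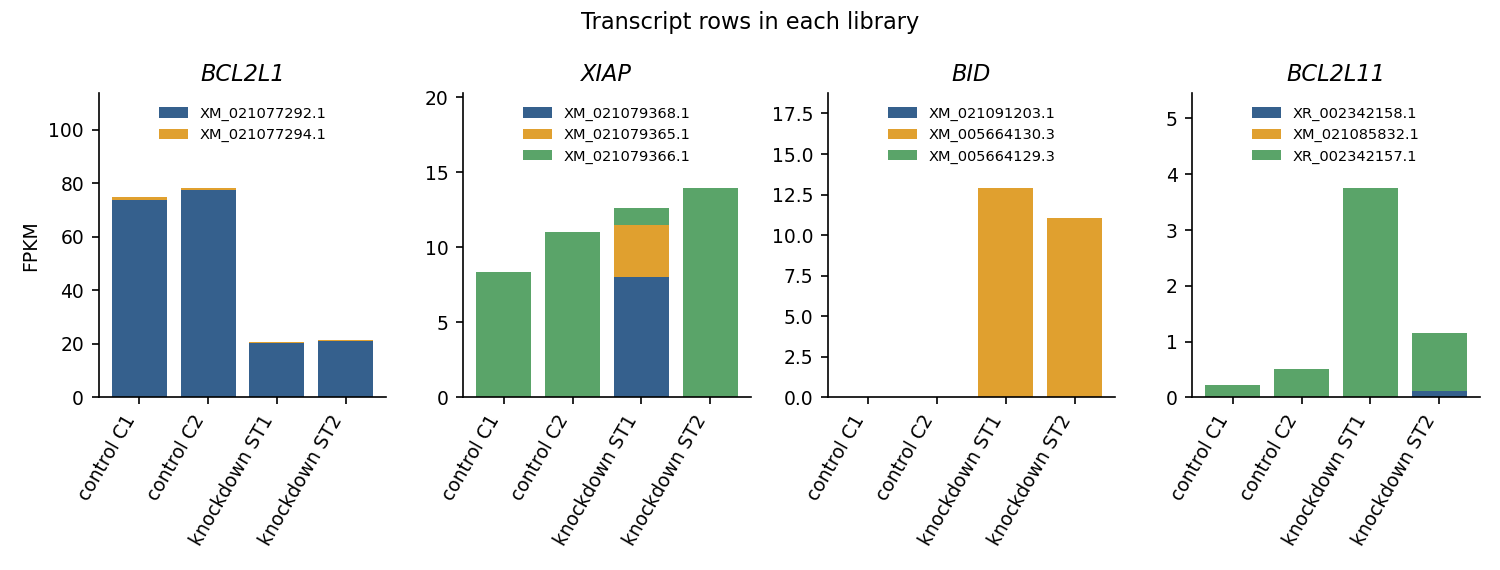
FPKM of each transcript row of BCL2L1, XIAP, BID and BCL2L11 in each library, stacked by row, with a separate vertical axis for each gene. One row carries nearly all of BCL2L1 and of BID, and XIAP is assigned to another set of rows in ST1 than in the 3 other libraries.

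BCL2, the founding survival gene of the family, was barely present. BCL2 (gene ID 100049703, chromosome 1, 158337403 to 158518214) was listed at 0 FPKM in C1, 0.0245 in C2, 0.752 in ST1 and 0.152 in ST2. Its mean was under 1 FPKM, so it was not tested. The largest of its 4 rows in ST1 was XR_002346028.1, a model annotated as non-coding, at 0.384 FPKM (51.1% of the sum). In C2 and ST2 the coding model XM_021099593.1 led, with 100% and 79.8% of the sum.

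BID had the lowest adjusted p of the tested genes among the 10. BID (gene ID 594852, chromosome 5, 69849007 to 69874647) encodes a BH3-only protein that caspase 8 cleaves to link death receptors to mitochondria. It was listed at 0 in both C libraries and stood at 12.9 and 11.0 FPKM in ST1 and ST2. ST1 and ST2 lay close together. Nearly all of the signal, 99.6% and 99.9%, was in XM_005664130.3, which was covered to a mean depth of 78.1 and 97.5 reads per base. The row XM_005664129.3 was listed at 0 in all 4 libraries. The difference passed the threshold (limma, adjusted p = 0.00614). BID passed the filter on low values only through ST1 and ST2, and with no such filter its adjusted p was 0.159 (limma). The fitted log2 value of 3.69 (SE 0.28) depends on the pseudocount for a gene listed at 0 and is no bound on a fold. Over all 25560 genes, 39 (0.153%) were listed at 0 in both C libraries and at 1 FPKM or more in both ST libraries, against 9 (0.0352%) with the reverse pattern. An exact 0 in this table can be a failed estimate, since the ribosomal protein gene RPL3, which all cells use, was listed at 0 in 3 of the 4 libraries. BID passed without C1 or C2 (limma, adjusted p = 0.0121 and 0.00517) and lost its call without ST1 or ST2 (0.124 and 0.0769).

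DIABLO, which antagonises XIAP after its release from mitochondria, was higher. DIABLO (gene ID 100155744, chromosome 14, 30498885 to 30519846) stood at 0.130 FPKM in C1, 0.0946 in C2, 6.59 in ST1 and 4.14 in ST2. The groups were far apart, with means of 0.112 ± 0.0251 and 5.37 ± 1.73 FPKM (SD, n = 2 each), a ratio of 47.8. The mean depth over its single row was 0.870 and 0.665 reads per base in C1 and C2 and 40.0 and 36.6 in ST1 and ST2. The log2 fold change on the FPKM + 1 scale, which understates the change of low genes, was 2.49 (SE 0.32, limma, adjusted p = 0.0168). DIABLO passed the filter on low values only through ST1 and ST2. With no such filter its adjusted p was 0.178, and with a replicate block it was 0.0511 (limma). The call was lost without C1 (limma, adjusted p = 0.0521) and without ST1 or ST2 (0.126 and 0.0769), and it held without C2 (0.0304).

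BAD passed narrowly. BAD (gene ID 100521065, chromosome 2, 7831192 to 7842864) encodes a BH3-only protein that growth factor signalling keeps inactive by phosphorylation. It stood at 0.127 FPKM in C1, 0.652 in C2, 6.93 in ST1 and 3.05 in ST2. The groups did not overlap, and in proportion to the mean the libraries of a group differed more than those of BCL2L1. The means were 0.389 ± 0.372 and 4.99 ± 2.75 FPKM (SD, n = 2 each), a ratio of 12.8, with a log2 fold change of 2.05 (SE 0.42, limma, adjusted p = 0.0479). The call was lost without any one of the 4 libraries (limma, adjusted p = 0.0603 to 0.218, log2 fold change 1.57 to 2.54). It was also lost with a pseudocount of 0.1 (adjusted p = 0.0717), after median-ratio scaling (0.0511) and after scaling without mitochondrially encoded genes (0.0555). BAD passed the filter on low values only through ST1 and ST2. With no such filter its adjusted p was 0.270, and with a replicate block it was 0.0972 (limma).

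BCL2L11 did not pass. BCL2L11 (gene ID 396632, chromosome 3, 45156791 to 45202996) encodes BIM, a BH3-only protein that binds BCL2, BCL-xL and MCL1. Its sum was 0.232 and 0.518 FPKM in C1 and C2 and 3.76 and 1.16 FPKM in ST1 and ST2. The groups did not overlap, and ST1 stood well above ST2, as for MCL1. The log2 fold change was 1.23 (SE 0.44, limma, adjusted p = 0.141). The signal lay in XR_002342157.1, a model annotated as non-coding, with 90.0% to 100% of the sum in each library, and the coding model in the table, XM_021085832.1, was listed at 0 throughout. These values therefore describe RNA from the locus and not a message known to encode BIM.

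The pore formers gave almost no signal. BAX (gene ID 396633, chromosome 6, 54222341 to 54228150) was listed at 0 in all 4 libraries. BAK1 (gene ID 397543, chromosome 7, 29808849 to 29815345) was listed at 0 in both C libraries and at 0.208 and 0.0902 FPKM in ST1 and ST2. Neither reached the mean of 1 FPKM needed for a test. The RefSeq gene table lists 2 transcripts for BAX and 4 for BAK1, of which 1 each was analysed here, so RNA of their other transcripts was not measured.

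Genes whose spans overlap these loci had little RNA where they were analysed. The spans of the 10 genes overlap 10 other annotated genes, 8 of them in the table, and the highest of those values was 0.881 FPKM, for LOC110260116 within BCL2L11 in ST1. The non-coding gene LOC110260761 within BID stood at 0 in both C libraries and at 0.400 and 0.135 FPKM in ST1 and ST2, far under BID itself. The library kit's strand setting is not given in the sources used here, so reads from either strand of such a pair cannot be told apart.

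Set against each other as listed, the summed FPKM of survival genes exceeded that of death genes in every library, by far more in C1 and C2. The 4 survival genes summed to 84.1 FPKM in C1, 94.3 in C2, 68.9 in ST1 and 42.4 in ST2. The 6 death genes summed to 0.489 FPKM in C1, 1.26 in C2, 30.4 in ST1 and 19.5 in ST2. The ratio of survival to death was 172 and 74.6 in C1 and C2 and 2.27 and 2.18 in ST1 and ST2. On the log2 scale the ratio was 6.82 ± 0.853 in C1 and C2 and 1.15 ± 0.0406 in ST1 and ST2 (SD, n = 2 each), a difference of -5.67 (labelled knockdown minus labelled control). As a difference of mean log2(FPKM + 1), which gives each gene equal weight, the same contrast was -1.25. No test is given, since the genes were chosen with results of these data known. The ratio is taken within a library, so it does not depend on scaling between libraries. The death sums of C1 and C2 rest on values under 1 FPKM, with BID listed at 0, and part of them is BCL2L11 RNA not known to encode BIM. Both sums leave out RefSeq transcripts that were not analysed, so the size of the ratio holds for the listed rows only. On the survival side 2 of 12 were analysed for BCL2L1 and 3 of 5 for XIAP. On the death side 1 of 2 were analysed for BAX, 1 of 4 for BAK1, 3 of 4 for BID and 3 of 12 for BCL2L11. Without BID and BCL2L11, a choice made after seeing the data, the ratios were 327 and 126 in C1 and C2 and 5.02 and 5.83 in ST1 and ST2.

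**Figure D3:**
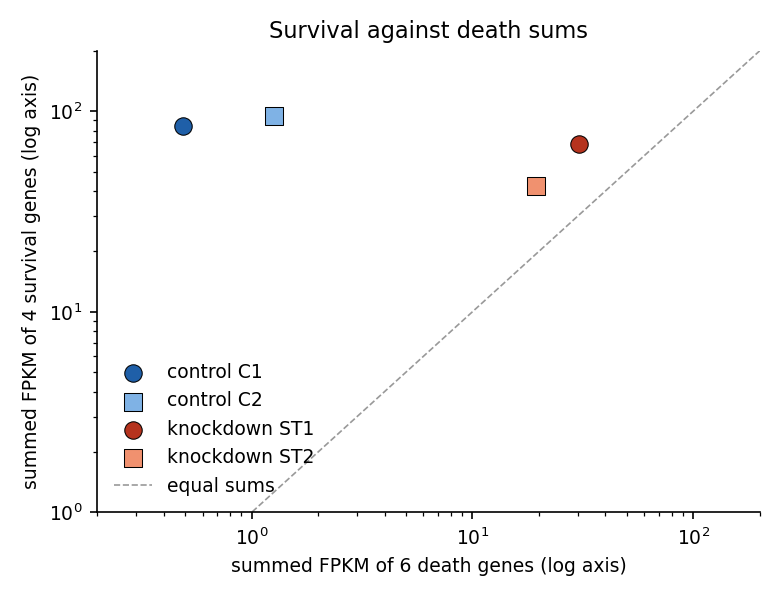
Summed FPKM of the 4 survival genes against summed FPKM of the 6 death genes, both on log axes, 1 point per library; the dashed line marks equal sums. All 4 libraries lie above the line, C1 and C2 at ratios of 172 and 74.6 and ST1 and ST2 at 2.27 and 2.18; BID is listed at 0 in C1 and C2, and the log2 difference of -5.67 becomes -1.25 when each gene has equal weight on the log2(FPKM + 1) scale.

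The make-up of both sums differed too. BCL2L1 made up 89.1% and 83.1% of survival RNA in C1 and C2 and 30.0% and 50.7% in ST1 and ST2. MCL1 made up 1.00% and 5.17% in C1 and C2 and 50.6% and 16.0% in ST1 and ST2. MCL1 was thus the leading survival gene in ST1 and BCL2L1 in ST2. On the death side BID led in both ST libraries, with 42.5% and 56.7% of the sum. In C1 and C2, where the whole death sum was at most 1.26 FPKM, BCL2L11 led in C1 (47.5%) and BAD in C2 (51.6%). Of the 10 genes, 2 and 3 reached 1 FPKM in C1 and C2, and 7 did in each ST library. In order of level, BCL2L1 lay above XIAP and XIAP above MCL1 in C1 and C2, with no overlap between these neighbours. In ST1 and ST2 the ranges of BCL2L1 and MCL1 overlapped, as did those of XIAP and BID, of DIABLO and BAD, and of BAD and BCL2L11.

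Every gene on the death side other than BAX was higher in both ST libraries than in both C libraries, 5 of 6 genes. On the survival side 3 of 4 genes were higher in the same sense and BCL2L1 was lower. These counts include BAK1 and BCL2, which were under 1 FPKM in every library and were not tested. The shares that follow are over tested genes and do not cover them. Among the 7 tested genes 6 were higher without overlap, where 24.7% of all tested genes were, and 1 was lower, where 35.8% were. Among the tested genes with a mean over C1 and C2 under 1 FPKM, 81.7% were higher without overlap, so that pattern is common in genes that are low in C1 and C2.

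In the wider death pathway the share of genes called was near that over all genes. Of the 44 tested genes counted here in 7 lists of related genes, 3 rose and 0 fell (limma, adjusted p under 0.05; 8 and 3 at an unadjusted p under 0.05). That is 6.82%, beside 6.57% of all tested genes, and the median log2 fold change was 0.039, beside -0.13. The 3 rises were genes of the mitochondrial outer membrane and mitochondrial shape, where 11 were tested. VDAC2 and FIS1 reached the mean of 1 FPKM only through ST1 and ST2, as the death genes did, and 28.4% of tested genes as low in C1 and C2 rose. VDAC2, the outer membrane channel that binds BAK1 in human and mouse cells, stood at 0.257 FPKM in C1, 0.577 in C2, 6.41 in ST1 and 7.37 in ST2, a log2 fold change of 2.48 (SE 0.29, limma, adjusted p = 0.0154). FIS1, an adaptor of mitochondrial fission, stood at 0.805 FPKM in C1, 0.705 in C2, 5.66 in ST1 and 6.39 in ST2 (limma, adjusted p = 0.0195). MTX2, a metaxin of protein import into the outer membrane, stood at 2.35 FPKM in C1, 1.51 in C2, 11.0 in ST1 and 9.28 in ST2 (limma, adjusted p = 0.0276). In all 3 the groups did not overlap. The abundant genes of this list did not pass: MFF, a receptor for the fission enzyme, had a log2 fold change of 0.45, OMA1, the protease that cuts OPA1, -0.46, and MFN1, a fusion enzyme, 0.18. Each of these 3 rises was lost without either ST library and without C1 (limma, adjusted p = 0.0521 to 0.195), and those of FIS1 and MTX2 also without C2 (0.0519 and 0.0766).

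Among 6 tested genes of the apoptosome and caspases none passed (limma; also 0 at an unadjusted p under 0.05), with a median of -0.16. CYCS, cytochrome c, stood at 63.3 FPKM in C1, 66.6 in C2, 37.8 in ST1 and 94.9 in ST2. ST1 lay below and ST2 above both C libraries. ACIN1, a caspase substrate of the nucleus, had a log2 fold change of -0.27 and did not pass. CASP6, a caspase that cuts nuclear lamins, stood at 4.16 FPKM in C1, 2.64 in C2, 11.7 in ST1 and 5.15 in ST2. Both ST libraries lay above both C libraries, and its log2 fold change of 1.03 (SE 0.43) did not pass (limma, adjusted p = 0.191). CASP8, named after its values were seen because it cleaves BID, was listed at 0 in all 4 libraries.

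Of 5 tested further members of the BCL2 family none passed (limma; 0 higher and 1 lower at an unadjusted p under 0.05), and their median was -0.20. BCL2L14 (BCL-G), the most abundant, stood at 64.3 FPKM in C1, 70.5 in C2, 30.6 in ST1 and 25.2 in ST2, a log2 fold change of -1.25 that missed the threshold (limma, adjusted p = 0.0546). BNIP3L, a mitophagy receptor, had a log2 fold change of -0.20. PMAIP1 (NOXA), a BH3-only protein that binds MCL1, stood at 10.9 FPKM in C1, 10.8 in C2, 29.4 in ST1 and 4.58 in ST2, so that ST1 lay above and ST2 below both C libraries.

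The lists around caspase inhibition, protein turnover, p53 and death receptors gave no call. Of 5 tested IAP proteins and their inhibitors 0 had an unadjusted limma p under 0.05 and the median was -0.23, and BIRC5 (survivin, a chromosomal passenger), BIRC3 and BIRC6 had log2 fold changes of -0.26, -0.23 and -0.10. Of 9 tested genes of MCL1 and BCL2 protein turnover 4 were higher and 1 lower at an unadjusted limma p under 0.05. Their median was 0.40, with DAD1, a subunit of oligosaccharyltransferase, at 0.41, USP9X, a deubiquitinase of MCL1 in human cells, at 0.06, and BAG1, a co-chaperone that binds BCL2, at 0.78. The largest change of that list, named after its values were seen, was in TPT1 (TCTP, which binds MCL1 in human cells), at 0.243 FPKM in C1, 1.49 in C2, 19.7 in ST1 and 5.02 in ST2 (log2 fold change 2.67, limma, adjusted p = 0.0714). The groups did not overlap, and ST1 stood above ST2 as for MCL1. Of 8 tested genes of the p53 axis 1 was higher and 1 lower at an unadjusted limma p under 0.05. Their median was 0.0039, with the p53-opposing phosphatase PPM1D at 0.13, TP53INP1 at -0.74 (SE 0.28) and PPP1R13B at -0.79 (SE 0.51). TP53INP1 did not overlap between the groups. PPP1R13B did, at 11.0 FPKM in C1, 3.61 in C2, 2.51 in ST1 and 4.26 in ST2. None of the 9 death receptor and adaptor genes in the table reached a mean of 1 FPKM. FAS, the highest of them by mean, stood at 0.0465 FPKM in C1, 0.287 in C2, 2.34 in ST1 and 0.418 in ST2.

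**Figure D4:**
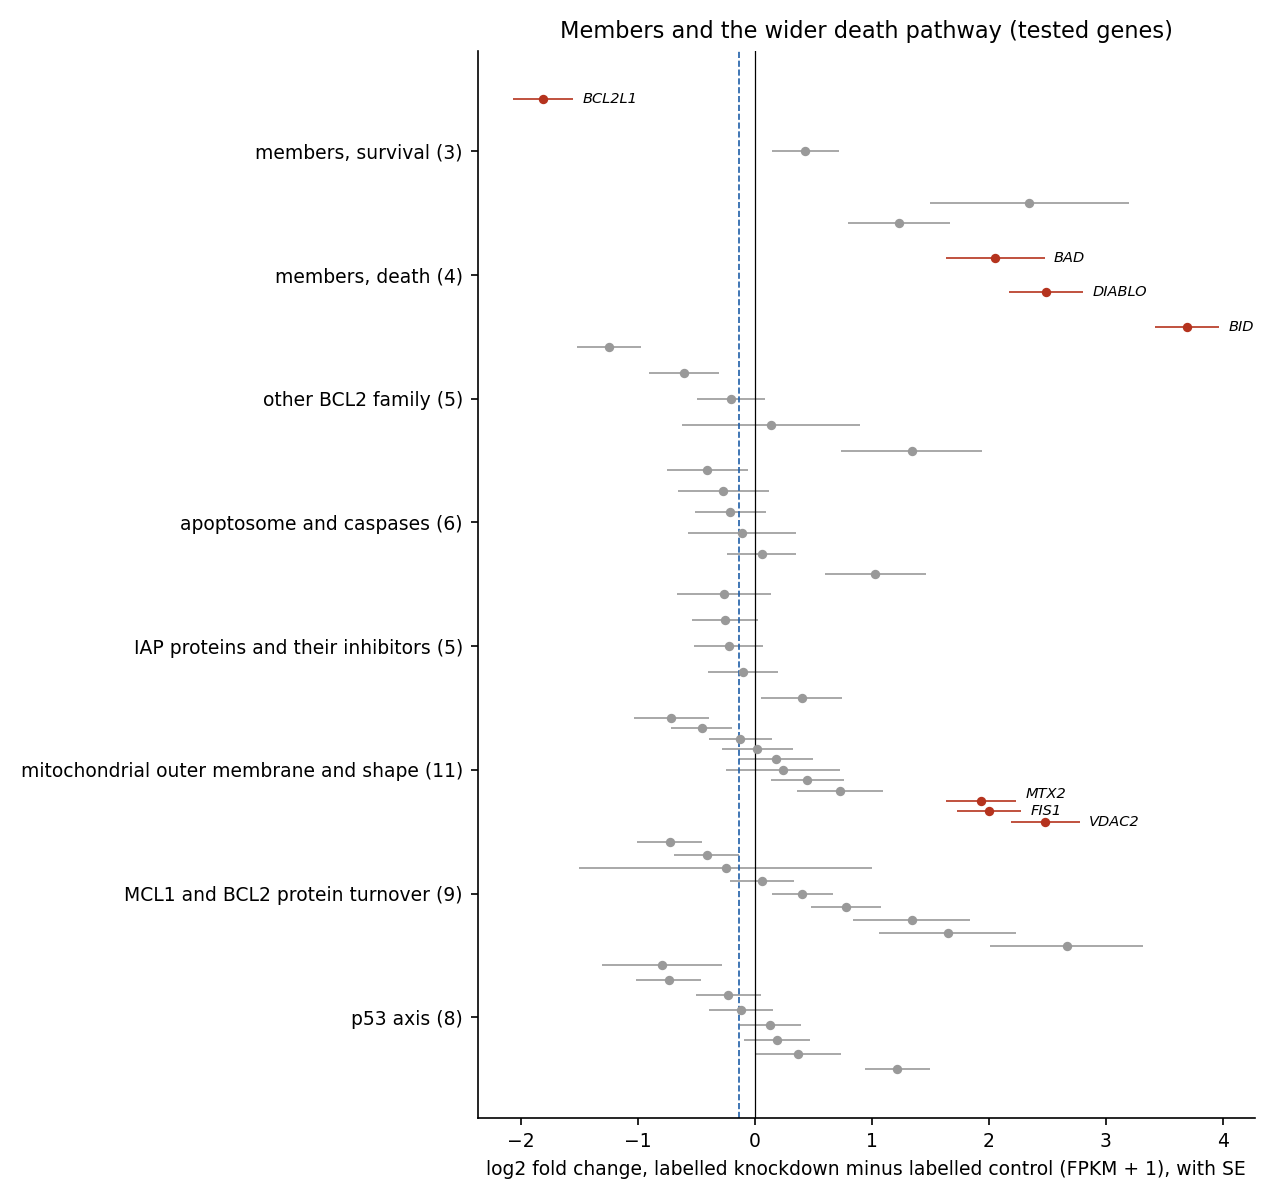
Log2 fold change (labelled knockdown minus labelled control, FPKM + 1) with its SE for each tested gene, grouped by list, with the number tested in brackets; red points passed the threshold and are named, grey points did not, and the dashed line is the median of all tested genes, -0.13. The value of BID depends on the pseudocount, since it is listed at 0 in both C libraries.

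**Figure D5:**
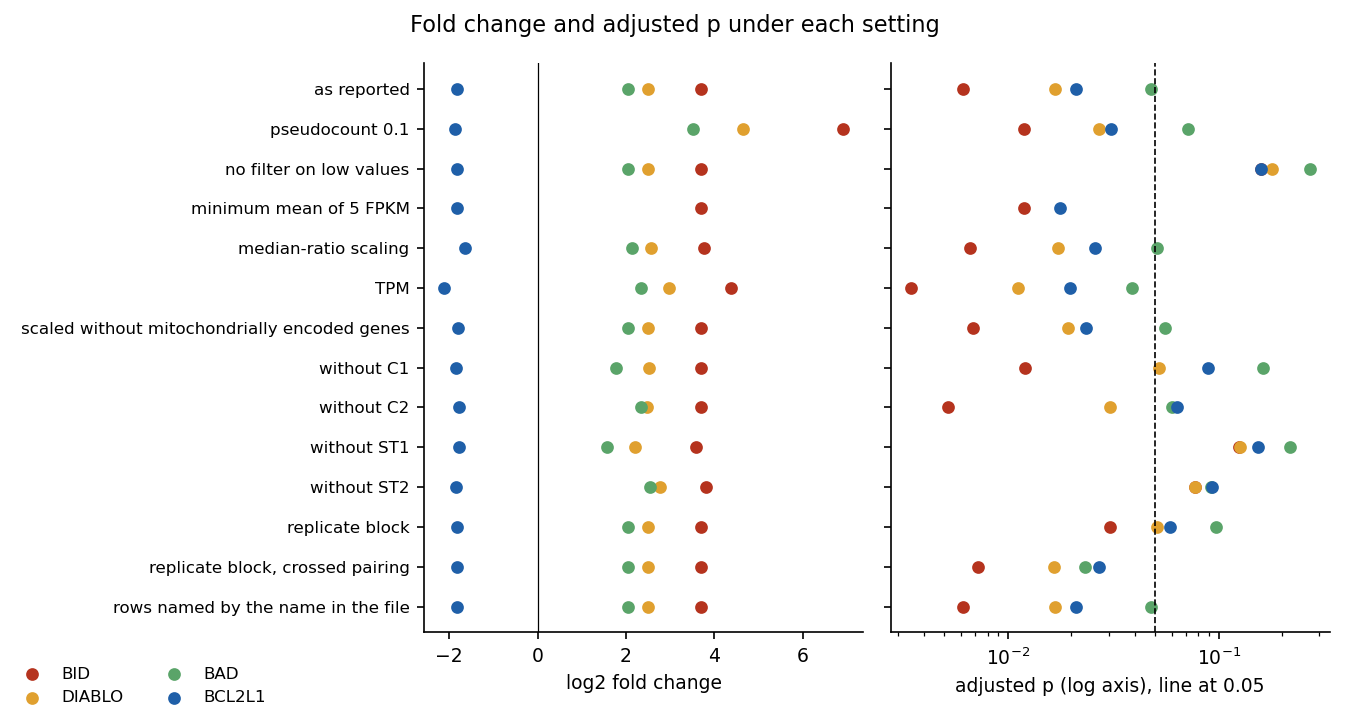
Log2 fold change (left) and limma Benjamini-Hochberg adjusted p on a log axis (right) of BID, DIABLO, BAD and BCL2L1 under each processing setting, with the dashed line at 0.05. The direction of each gene is the same in every setting where it was tested, while the adjusted p of all 4 lies above 0.05 without either ST library and with no filter on low values.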

How the data were processed

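Libraries were prepared from RNeasy-purified RNA by SMARTer chemistry, which amplifies cDNA, per the labels' protocols. The submitters' processing notes name StringTie 2.1.7, Bowtie2 2.3.5, cutadapt and the assembly Sscrofa11.1; how each was set or used is not given in the sources used here. The authors' deposited FPKM is scaled for transcript length and library size, the deposited TPM to the same sum in each library, and the deposited coverage gives reads per base, averaged over a transcript and unscaled. No counts were used, so depth enters no interval.

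Rows were named by RefSeq transcript accession (Sscrofa11.1 gene table), or otherwise by the file; the 20 rows of the 10 genes had the same name both ways. Gene coordinates are of that table, 1-based. FPKM was summed per gene, and the 9850 genes averaging 1 FPKM or more entered a limma 3.58.1 fit (R 4.3.3, trend, group only) on log2(FPKM + 1), two-sided, with Benjamini-Hochberg adjustment over all tested genes and a threshold of 0.05. The fit leaves 2 residual degrees of freedom and was tested on simulated data. The genes and lists were chosen with earlier results of these data known. All 10 genes are named; of the other lists, every gene past the threshold and at most 3 others with the highest mean, plus CASP8 and TPT1, chosen after their values were seen. A promoter motif search that had been planned is not reported here, and 2 genes of the caspase list are not reported here or counted. Alternatives covered the pseudocount, the filter, scaling, naming, transcript rows, a replicate block and leaving out each library.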

Additional observations from a re-analysis of the deposited data

How the results depend on the processing

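None of the 7 tested genes of the 10 changed direction in any alternative run on gene sums that tested it. Single transcript rows were not compared in this way. The XIAP row that led in C1 and C2, at 8.36 and 11.0 FPKM, was lower in ST1 (1.17 FPKM) and higher in ST2 (14.0 FPKM). The counts below are genes higher and lower in the ST libraries (limma, adjusted p under 0.05), for all tested genes, then the 10 genes, then the wider lists (503 and 144, 3 and 1, 3 and 0 as reported). With no filter on low values all 6 counts were 0, against 1880 and 1925, 3 and 1, and 7 and 6 at an unadjusted p under 0.05. With 1 library left out the counts lay between 0 and 463 and between 0 and 42, between 0 and 2 and at 0, and between 0 and 1 and at 0; they were all 0 without ST1 (891 and 828, 3 and 1, 5 and 2 unadjusted) or ST2 (1381 and 1285, 5 and 1, 10 and 1), and 160 and 14 over all genes without C1. A lone library is then assumed to vary like the other group. A pseudocount of 0.1 gave 312 and 62, 2 and 1, 3 and 0, and a minimum mean of 5 FPKM 320 and 124, 1 and 1, 1 and 1. Median-ratio scaling gave 535 and 78, 2 and 1, 3 and 0, and moved the median log2 fold change of all tested genes from -0.13 to 0.0055; TPM gave 452 and 268, 3 and 1, 3 and 1, with a median of -0.39. Transcript rows gave 70 and 34, 1 and 0, 0 and 0 (limma; 4 and 3 unadjusted for the wider lists). The replicate block gave 125 and 8, 1 and 0, 1 and 0. Deviations of same-numbered libraries had r = -0.14 across 9850 genes, which are not replicates. With 2 libraries in a group, pairing them the other way gives the same value with its sign reversed, 0.14. This value therefore cannot show whether same-numbered libraries share a batch, and the labels give them only a shared number. The crossed pairing, added after seeing the data, gave 611 and 119, 4 and 1, 4 and 0. The difference of -5.67 in the log2 ratio of survival to death became -1.25 as a difference of mean log2(FPKM + 1), which gives each gene equal weight, and lay between -6.28 and -5.07 with 1 library left out. It was -4.67 without BID, -6.38 without BCL2L11 and -5.23 without both, choices added after seeing the data. BCL2, BCL2L1 and MCL1 against BAX and BAK1 gave no value, since both are listed at 0 in C1 and C2. For the other settings the cause of a change was not tested.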
